A study of Homo sapiens with 8 samples.

Results

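The genes of glucose uptake and glycolysis and the genes regulated by hypoxia were followed through SIRT1 knockdown in a T-cell leukemia line. They were taken as a fixed list of symbols, namely glucose transporters, glycolytic enzymes, and the hypoxia-inducible factors (HIF) with their targets. Of 38 listed names 37 matched a row of the deposited table of 18133 gene symbols, and 1, MXI1-free, is not a gene symbol and matched no row. By role they were 2 glucose transporters, 15 enzymes from glucose to pyruvate, 2 lactate dehydrogenases, 2 glycolysis regulators, 3 genes of pyruvate and lactate handling, 3 HIF subunits, 2 HIF prolyl hydroxylases and 8 HIF targets outside glycolysis. All 37 had a mean of at least 10 normalized counts and were therefore among the 13885 genes tested. The cells were DND41, an established line of human T-cell acute lymphoblastic leukemia, treated with doxycycline for 72 h in every group to switch on a hairpin RNA. The groups were the SIRT1 hairpin sh1 (libraries A, B and C), the SIRT1 hairpin sh3 (A, B and C) and a control hairpin (A and C, control B not analysed here). The labels do not say what the hairpin numbers stand for, and a single cell line was used. Cells were plated in triplicate and no separate infections or clones are named in the labels. The p-values therefore reflect variation among these cultures alone, and that variation may be technical.

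Glycolysis breaks glucose down to pyruvate in the cytosol, and lactate dehydrogenase then turns pyruvate into lactate, which is exported. Proliferating T cells and T-cell leukemias are known for high glucose uptake and lactate output. HIF1 and HIF2 are transcription factors made of an oxygen-sensitive alpha chain (HIF1A or EPAS1) and the constant partner ARNT. With oxygen present, prolyl hydroxylases of the EGLN family mark the alpha chain for destruction. When oxygen is short the alpha chain persists and raises many glycolytic genes and also genes outside glycolysis, in angiogenesis, mitophagy, collagen hydroxylation and chromatin. SIRT1 is a nuclear NAD-dependent deacetylase. The proteins of the HIF system are regulated largely after translation, and only messenger RNA was measured here.

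SIRT1 messenger RNA was at 1259, 1312 and 1328 with sh1 and 1099, 1217 and 1179 with sh3, against 1745 and 1919.5 in the controls, in normalized counts, so that all 6 knockdown libraries were below both controls. The log2 fold changes were -0.49 ± 0.070 with sh1 (SE, limma adjusted p = 0.0029) and -0.65 ± 0.070 with sh3 (adjusted p = 0.00014). The call with sh1 ended without control C. Library sums ran from 33087800 to 34072700 normalized counts, and the 37 genes made up at most 1.60% of a sum. The library sh3 C has conflicting labels, with a title and genotype of the SIRT1 arm and a description that names the control hairpin. It was kept with sh3, with which its Spearman correlations across genes were 0.996 and 0.996, against 0.992 and 0.991 with the controls. Of 7 T-lineage markers 6 were present in every library (CD3E from 18528 to 26148 normalized counts), PTCRA had no row, and the 9 myeloid, erythroid and adherent-cell markers reached at most 19.4. Of the B-cell markers CD79A was at 17609 to 25708, and MS4A1 had no row. In such bulk samples fewer cells with an RNA and less of it per cell cannot be told apart.

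With both hairpins weighted equally, 12 of the 37 genes differed from control, 8 of them higher and 4 lower. The risers were the glucose transporter SLC2A3, the glycolytic activator PFKFB3, the enolase ENO2, the prolyl hydroxylase EGLN1 and the HIF-regulated genes KDM3A, DDIT4, ANKZF1 and ADM. The fallers were the glycolytic enzymes GAPDH, PGAM1 and PKM and the HIF2 alpha chain EPAS1, of which GAPDH and PKM were not called under quantile normalization. The largest log2 changes were 1.31 ± 0.33 for ADM, -1.15 ± 0.23 for EPAS1 and 0.90 ± 0.11 for SLC2A3 (SE), and the other 9 lay between -0.21 and 0.46. Differences were tested with limma over all 13885 genes with Benjamini-Hochberg adjustment at 0.05, and fold changes are on the scale of log2(normalized count + 1), which understates those of low genes. Of all genes tested 12.7% were called, 6.55% higher and 6.19% lower, so that the 12 of 37 lie above the background share. Abundant genes were called more often, with 18.3% called among the 6902 that averaged 1000 normalized counts or more. Of the 31 members at that level 10 were called. For 13 of the 37 the knockdown and control libraries did not overlap, 8 higher and 5 lower, against 23.2% of all genes (11.9% higher and 11.4% lower).

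With sh1 alone 7 of the 37 were called, 3 higher and 4 lower than control, against 6.31% of all genes (2.88% higher and 3.43% lower). With sh3 alone 18 were called, 12 higher and 6 lower, against 18.6% (9.36% higher and 9.19% lower). Libraries did not overlap with sh1 in 9 higher and 9 lower members, against 38.2% of all genes (19.3% and 18.9%). With sh3 the same held for 15 higher and 10 lower members, against 49.8% (24.8% and 25.1%). Both comparisons use the same control libraries. The members called with each hairpin in the same direction were 4, namely SLC2A3, ENO2, EPAS1 and KDM3A, and 3.86% of all genes did likewise. A further 14 were called with sh3 and not with sh1, and 3, which were LDHA, SLC16A1 and VEGFA, with sh1 and not with sh3. Over all 13885 genes sh3 also gave more calls than sh1, 2576 (18.6%) against 876 (6.31%), and 536 were called with both in the same direction. Most sh3 calls over all genes were thus not sh1 calls either, and the exact share called with only 1 hairpin was not counted. A call with 1 hairpin and not the other is not itself a difference between them.

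**Figure D1:**
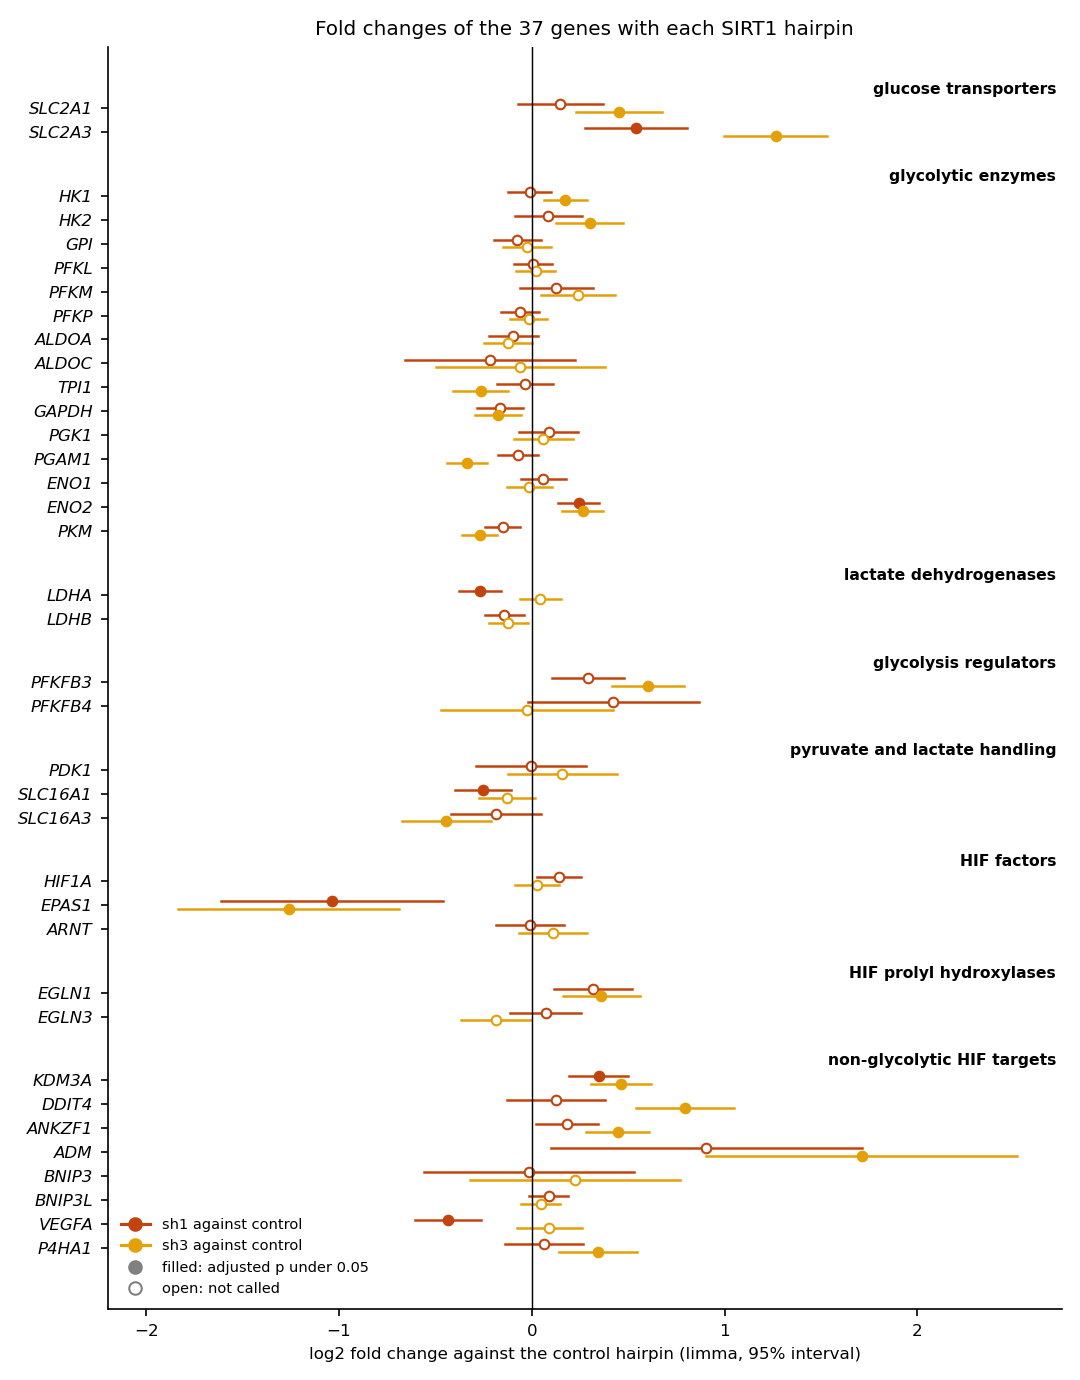
Log2 fold change (horizontal axis) of each of the 37 genes with sh1 and with sh3 against the control hairpin, with 95% limma intervals, grouped by role from top to bottom. Filled points have an adjusted p under 0.05. Most enzymes sit within 0.3 of zero, SLC2A3 and ADM lie furthest to the right with sh3 (1.26 and 1.71), and EPAS1 lies furthest to the left with both hairpins (-1.04 and -1.26).

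Glucose enters T cells mainly through the facilitative transporters GLUT1, encoded by SLC2A1, and GLUT3, encoded by SLC2A3. SLC2A3 (chromosome 12, 7919230 to 7936275, GRCh38) stood at 1931, 2061 and 1595 with sh1 and 3329, 3254 and 2649 with sh3, against 1375 and 1181 in the controls, in normalized counts. Every knockdown library exceeded both controls, and the 3 sh3 libraries exceeded the 3 sh1 libraries. The rise was 1.45-fold with sh1 (log2 0.54 ± 0.12, SE, limma adjusted p = 0.026) and 2.40-fold with sh3 (log2 1.26 ± 0.12, adjusted p = 6.1e-05). The sh1 call ended without control A, control C, sh1 A or sh1 B. SLC2A3 was the 1 gene of the 12 that was still called without control C (0.79, adjusted p = 0.020, for the mean of the hairpins). SLC2A1 measured 1712, 2010.2 and 1697 with sh1 and 2057, 2537 and 2103 with sh3, against 1545 and 1709.9 in the controls. Its sh3 libraries lay above both controls while its sh1 libraries overlapped them, and the gene was called with sh3 (0.45 ± 0.10, limma adjusted p = 0.011), whereas its sh1 change was 0.15 ± 0.10 (adjusted p = 0.43). The sh3 call of SLC2A1 ended without control A (0.38, adjusted p = 0.083). The count ratio of SLC2A3 to SLC2A1, which is not divided by transcript length, was 1.03 ± 0.0940 with sh1, 1.39 ± 0.201 with sh3 and 0.790 ± 0.141 in the controls (SD, n = 3, 3 and 2).

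**Figure D2:**
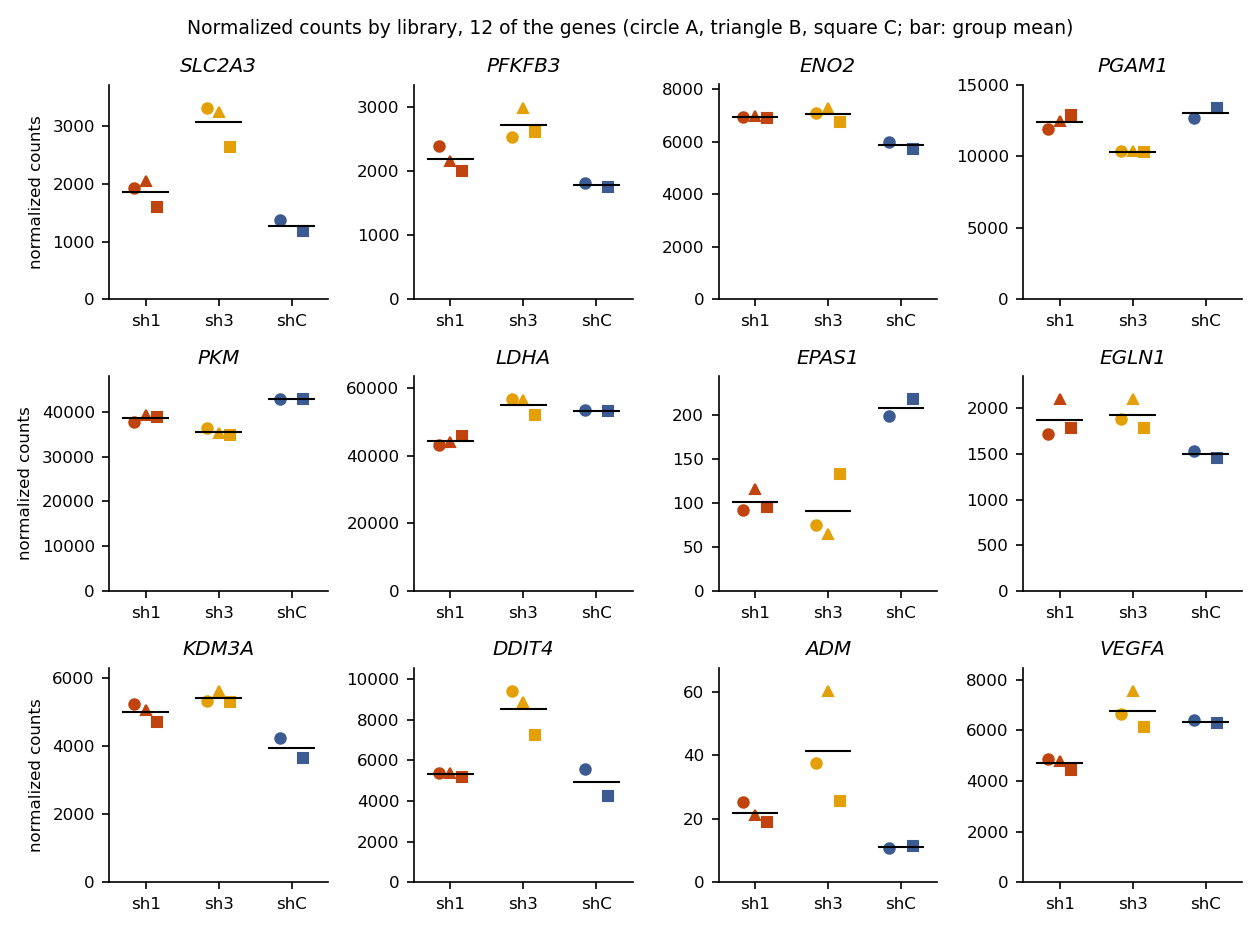
Normalized counts (vertical axes, from 0) of 12 of the genes in each library of sh1, sh3 and the control hairpin shC, with a bar at each group mean. SLC2A3, PFKFB3, ENO2, EGLN1, KDM3A and ADM are above both controls in all 6 knockdown libraries, PKM and EPAS1 are below both in all 6, and LDHA and VEGFA are below both in the 3 sh1 libraries and in sh3 C.

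The enzymes of the chain from glucose to pyruvate changed in both directions. Over the mean of the hairpins ENO2 rose and PGAM1, PKM and GAPDH fell, PKM and GAPDH not being called under quantile normalization. These 4 of 15 stand against 12.7% of all genes. Among genes averaging 1000 normalized counts or more, as all of the 15 but ALDOC did, 18.3% were called. The log2 changes of all 15 lay between -0.21 and 0.25. With sh1 1 of the 15 was called, against 6.31% of all genes, and with sh3 7, of which 3 were higher and 4 lower, against 18.6%. The median size of the 15 changes, regardless of direction, was 0.14 for the mean of the hairpins and 0.17 for sh3, against 0.13 and 0.16 over all genes. At the first step, hexokinase, which traps glucose as its phosphate, HK1 was at 4378, 4345 and 4120.2 with sh1 and 4964, 4905 and 4709.6 with sh3, against 4412 and 4210.5 in the controls. The highest values were in the 3 sh3 libraries, and the sh1 libraries lay within and around the controls. HK2, the inducible hexokinase, was at 4147, 3833 and 3394 with sh1 and 4209, 4693 and 4262 with sh3, against 3606 and 3516 in the controls, with the sh3 libraries again above both controls and sh1 spread across them. Both were called with sh3, HK1 by 0.17 ± 0.051 (SE, limma adjusted p = 0.037) and HK2 by 0.30 ± 0.079 (adjusted p = 0.023), and the call of HK1 ended without control A, control C, sh1 B, sh3 A or sh3 B, that of HK2 without control A, control C or sh3 B. Under quantile normalization the sh3 change of HK1 was 0.15, adjusted p = 0.056. The sh1 changes were -0.010 and 0.086 (adjusted p = 0.94 and 0.57).

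The middle of the pathway showed no calls over the mean of the hairpins. Glucose-6-phosphate isomerase (GPI) changed by -0.049 ± 0.050, and the phosphofructokinase subunits, which set the pace of glycolysis, by 0.014 ± 0.041 for PFKL, 0.18 ± 0.078 for PFKM and -0.039 ± 0.040 for PFKP (SE). The 95% interval was -0.075 to 0.10 for PFKL and 0.013 to 0.35 for PFKM, the widest of the 3. The aldolases ALDOA and ALDOC changed by -0.11 ± 0.052 and -0.14 ± 0.18. Adjusted p for these 6 ran from 0.15 to 0.87. TPI1, the isomerase that recovers the second triose, was at 19102, 19593 and 22014 with sh1 and 17630.3, 17296 and 16751 with sh3, against 19609.9 and 21866 in the controls. The 3 sh3 libraries were below both controls and below all sh1 libraries, and TPI1 fell with sh3 (-0.27 ± 0.066, limma adjusted p = 0.017). Leaving out control C gave -0.19, adjusted p = 0.18, and quantile normalization gave -0.17, adjusted p = 0.053.

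GAPDH, which makes the NADH of the pathway and often serves as a reference gene (chromosome 12, 6533927 to 6538374), stood at 80858, 84565 and 89392 with sh1 and 83978, 84449 and 84116 with sh3, against 90518 and 99796 in the controls. All knockdown libraries lay below both controls, with control C the highest. Its change was -0.17 ± 0.049 (limma adjusted p = 0.044), but under quantile normalization it was -0.039, adjusted p = 0.70, and the sh3 change there was 0.0060, adjusted p = 0.96. The GAPDH call also ended without control C, sh1 B, sh3 A, sh3 B or sh3 C. PGK1, phosphoglycerate kinase and the first ATP-making step, changed by 0.074 ± 0.062 (adjusted p = 0.48). PGAM1, the mutase that follows it (chromosome 10, 97426160 to 97433441), was at 11906, 12495 and 12860.2 with sh1 and 10372, 10353 and 10286 with sh3, against 12698 and 13412 in the controls. The sh3 libraries were the 3 lowest by a wide gap, and the sh1 libraries overlapped the controls. The fall was 1.26-fold with sh3 (-0.34 ± 0.047, limma adjusted p = 0.00079), while the sh1 change of -0.072 ± 0.047 was not called (adjusted p = 0.41). The sh3 call of PGAM1 was kept in each of the alternatives tried.

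Enolase makes phosphoenolpyruvate, and the enolase genes ENO2 and ENO1 differed. ENO2, the gamma enolase best known from neurons (chromosome 12, 6913745 to 6923698), was at 6940.3, 6968 and 6901 with sh1 and 7069, 7296 and 6744 with sh3, against 6003 and 5714 in the controls. All 6 knockdown libraries were above both controls, and sh1 and sh3 overlapped. It rose by 0.24 ± 0.049 with sh1 and 0.26 ± 0.049 with sh3 (limma adjusted p = 0.017 and 0.0040), and the sh1 call ended without control C or sh1 B, the sh3 call without control C. In the annotation the span of ENO2 overlaps that of LRRC23, with strand and exons not compared. It may share reads with LRRC23, which was not tested. ENO1, the alpha enolase, changed by 0.024 ± 0.048 (95% interval -0.081 to 0.13, adjusted p = 0.79), although under quantile normalization its change was 0.12, adjusted p = 0.043. The count ratio of ENO2 to ENO1 was 0.0559 ± 0.00310 with sh1, 0.0596 ± 0.00241 with sh3 and 0.0492 ± 0.00361 in the controls (SD). PKM, the pyruvate kinase that completes glycolysis (chromosome 15, 72199029 to 72231822), was at 37746, 39222 and 38835 with sh1 and 36454, 35332 and 34868 with sh3, against 42859 and 42877 in the controls. Both controls were nearly equal, all knockdown libraries lay below them, and sh3 lay below sh1. Its change was -0.27 ± 0.041 with sh3 (limma adjusted p = 0.0013, called in each alternative), and the sh1 change was -0.15 ± 0.041 (adjusted p = 0.054).

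Of the lactate dehydrogenase chains, LDHA fell with sh1 and was lower there than with sh3, a difference that was itself called (-0.31 ± 0.044, limma adjusted p = 0.00086). LDHA, the chain that favours lactate formation, was at 43186, 44146 and 45770.4 with sh1 and 56875, 56504 and 52151 with sh3, against 53697 and 53184 in the controls. The sh1 libraries were the 3 lowest and the sh3 libraries straddled the controls. The change was -0.27 ± 0.049 with sh1 (limma adjusted p = 0.011) and 0.045 ± 0.049 with sh3 (adjusted p = 0.58, 95% interval -0.063 to 0.15), and the sh1 call ended without control A or control C. LDHB, the heart-type chain, changed by -0.13 ± 0.041 for the mean of the hairpins and missed the threshold (adjusted p = 0.058), with all 6 knockdown libraries below both controls. The count ratio of LDHA to LDHB was 1.21 ± 0.0306 with sh1, 1.48 ± 0.0634 with sh3 and 1.32 ± 0.0300 in the controls (SD), and the 3 groups did not overlap.

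PFKFB3 makes fructose 2,6-bisphosphate, the strongest activator of phosphofructokinase, and is a HIF target. PFKFB3 (chromosome 10, 6144934 to 6254644) was at 2379.8, 2160.1 and 2001 with sh1 and 2523, 2986 and 2611 with sh3, against 1811 and 1746 in the controls. Each knockdown library exceeded both controls, with sh3 above sh1. It rose 1.52-fold with sh3 (0.60 ± 0.085, limma adjusted p = 0.00083, called in each alternative), and the sh1 change of 0.29 ± 0.085 was not called (adjusted p = 0.070). Its relative PFKFB4 was a low gene at 168 ± 25.4 with sh1, 123 ± 17.3 with sh3 and 126 ± 32.8 in the controls (SD), and changed by 0.42 ± 0.20 and -0.024 ± 0.20 without a call (adjusted p = 0.25 and 0.95).

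Pyruvate and lactate handling held falls in the lactate exporters, each with 1 hairpin. SLC16A1, the monocarboxylate transporter MCT1, was at 2820.2, 2637 and 2508 with sh1 and 2794, 2812 and 3077 with sh3, against 3077 and 3254 in the controls. All knockdown libraries were below both controls, sh3 C by less than 1 normalized count. It was called with sh1 (-0.25 ± 0.066, limma adjusted p = 0.044) and not with sh3 (-0.13, adjusted p = 0.20). SLC16A3, the HIF-regulated exporter MCT4, was at 504, 532 and 431 with sh1 and 420.1, 393 and 410.2 with sh3, against 582 and 527 in the controls. Here the sh3 libraries were the 3 lowest. SLC16A3 fell with sh3 (-0.44 ± 0.11, adjusted p = 0.015), and its sh1 change of -0.19 was not called (adjusted p = 0.34). The call of SLC16A1 ended without control A, control C, sh1 B, sh1 C, sh3 A or sh3 B, and that of SLC16A3 without control A or control C. The difference between the hairpins was itself not called for SLC16A1 (-0.12, adjusted p = 0.21) or SLC16A3 (0.26, adjusted p = 0.11). PDK1, a kinase that shuts pyruvate dehydrogenase and is a HIF1 target, changed by 0.077 ± 0.12 (adjusted p = 0.71, 95% interval -0.18 to 0.33).

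Among the HIF subunits EPAS1 fell with both hairpins, and HIF1A and ARNT were not called. HIF1A was at 3969, 3904 and 4068 with sh1 and 3801, 3736 and 3502 with sh3, against 3655 and 3561 in the controls. The sh1 libraries were above both controls and the sh3 libraries straddled them, but neither change passed the test (0.14 ± 0.052 with sh1 and 0.028 ± 0.052 with sh3, limma adjusted p = 0.14 and 0.76). For the mean of the hairpins the 95% interval was -0.018 to 0.19. EPAS1, which encodes HIF2 alpha (chromosome 2, 46293667 to 46386703), was at 92.2, 116 and 95.6 with sh1 and 74.5, 64.3 and 133 with sh3, against 198 and 218 in the controls. Each of the 6 knockdown libraries fell below both controls, and sh3 C was the nearest to them. EPAS1 was 2.05-fold lower with sh1 (-1.04 ± 0.26, limma adjusted p = 0.040) and 2.40-fold lower with sh3 (-1.26 ± 0.26, adjusted p = 0.0073). The sh1 call ended without control A, control C, sh1 A, sh1 B, sh1 C or sh3 A, the sh3 call without control C. Over the mean of the hairpins EPAS1 was called with or without sh3 C, while leaving out control A gave -1.22, adjusted p = 0.053, and leaving out control C gave -1.08, adjusted p = 0.12. ARNT, the shared partner, changed by 0.052 ± 0.072 (adjusted p = 0.69).

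EGLN1 and EGLN3, prolyl hydroxylases that mark HIF alpha chains, are themselves HIF-induced. EGLN1 rose, and EGLN3 was not called against control. EGLN1, the main oxygen sensor (chromosome 1, 231363751 to 231425044), was at 1722, 2098 and 1786 with sh1 and 1886, 2099.6 and 1786 with sh3, against 1534 and 1456 in the controls. All knockdown libraries were above both controls, and the hairpins overlapped. The rise over the mean of the hairpins was 1.26-fold (0.34 ± 0.082, limma adjusted p = 0.021), with adjusted p = 0.066 for sh1 and 0.019 for sh3 taken singly. That rise was no longer called without control A or control C, nor the sh3 call without control A, control C or sh3 B. EGLN3 was at 1067, 1184 and 1114 with sh1 and 957, 1008 and 856 with sh3, against 1100.3 and 1034 in the controls. The sh3 libraries were the 3 lowest and the sh1 libraries overlapped the controls. Neither change from control passed the test (0.071 and -0.19, adjusted p = 0.67 and 0.15). The count ratio of EGLN3 to EGLN1 was 0.603 ± 0.0332 with sh1, 0.489 ± 0.0159 with sh3 and 0.714 ± 0.00530 in the controls (SD), without overlap between the groups.

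Of the 8 HIF targets outside glycolysis 4 rose over the mean of the hairpins and the other 4 were not called. KDM3A, a histone H3 lysine 9 demethylase (chromosome 2, 86440647 to 86492716), was at 5239, 5077 and 4698 with sh1 and 5319, 5637 and 5303 with sh3, against 4242 and 3641 in the controls. All 6 knockdown libraries exceeded both controls. It rose by 0.35 ± 0.070 with sh1 and 0.46 ± 0.070 with sh3 (limma adjusted p = 0.017 and 0.0013). The sh3 call was kept in each alternative, the sh1 call ended without control C or sh1 B, and the mean of the hairpins gave 0.29, adjusted p = 0.057 with control A alone. DDIT4, which encodes the mTORC1 inhibitor REDD1 (chromosome 10, 72273920 to 72276036), was at 5365, 5383 and 5194 with sh1 and 9432, 8849 and 7229 with sh3, against 5571 and 4252 in the controls. The sh3 libraries stood above all others, and the sh1 libraries lay between the 2 controls. DDIT4 rose 1.74-fold with sh3 (0.80 ± 0.12, adjusted p = 0.00094, called in each alternative), and its sh1 change was 0.13 ± 0.12 (adjusted p = 0.57).

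ANKZF1, a factor of mitochondrial and ribosomal quality control (chromosome 2, 219229757 to 219236669), was at 3278, 3289.8 and 3278 with sh1 and 4194, 4165 and 3489 with sh3, against 2935 and 2844 in the controls. The 3 sh1 libraries were nearly equal and above both controls, and the sh3 libraries were higher still. The change was 0.45 ± 0.074 with sh3 (limma adjusted p = 0.0022, called in each alternative) and 0.18 ± 0.074 with sh1 (adjusted p = 0.17). The span of ANKZF1 overlaps that of GLB1L in the annotation, with strand and exons not compared. The 2 genes may share reads, which was not tested. ADM, the vasodilator peptide adrenomedullin (chromosome 11, 10304680 to 10307397), was a low gene at 25.4, 21.1 and 19.1 with sh1 and 37.6, 60.3 and 25.6 with sh3, against 10.7 and 11.6 in the controls, in normalized counts. Both controls were below every knockdown library, and sh3 B was the highest. Its rise was 3.28-fold with sh3 (1.71 ± 0.37, adjusted p = 0.0087) and was uncalled for sh1 (0.90 ± 0.37, adjusted p = 0.17). Leaving out control C gave 1.76, adjusted p = 0.056 for sh3.

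VEGFA, the angiogenic growth factor, went against this pattern with sh1. It was at 4859, 4777 and 4449 with sh1 and 6653, 7569 and 6111 with sh3, against 6399 and 6276 in the controls. The sh1 libraries were the 3 lowest, and the sh3 libraries overlapped the controls. The change was -0.43 ± 0.077 with sh1 (limma adjusted p = 0.0095), not kept without control A or control C, and 0.091 ± 0.077 with sh3 (adjusted p = 0.46). P4HA1, a collagen prolyl hydroxylase, was at 2076, 2105 and 2006 with sh1 and 2545, 2829 and 2189 with sh3, against 2075 and 1881 in the controls. Its sh3 libraries exceeded the controls and its sh1 libraries overlapped them, with a call for sh3 (0.34 ± 0.092, adjusted p = 0.025) lost without control C, sh3 A or sh3 B. BNIP3L, a mitophagy receptor, stayed within 4060.5 and 4402 normalized counts in the 8 libraries (change 0.066 ± 0.040, adjusted p = 0.31). BNIP3, its relative, was at 37.5 to 57.2 (adjusted p = 0.80) and is uncertain. Rows of 11 BNIP3 pseudogenes held a summed mean of 339 normalized counts, against 50.7 for BNIP3 itself, so that its reads may have been split.

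HIF binds the core motif ACGTG or GCGTG. The promoters of the risers found in the set of RefSeq starts used here (GRCh38.p14) are shown, and a part of HIF in their rise was not tested. Each window runs from 250 bases before to 50 bases after the first listed start, 5′ to 3′ on the gene's strand, with matches to either core on either strand in capitals (a match on the other strand reads CACGT or CACGC).
DDIT4 (chr10:72273674-72273973, plus strand): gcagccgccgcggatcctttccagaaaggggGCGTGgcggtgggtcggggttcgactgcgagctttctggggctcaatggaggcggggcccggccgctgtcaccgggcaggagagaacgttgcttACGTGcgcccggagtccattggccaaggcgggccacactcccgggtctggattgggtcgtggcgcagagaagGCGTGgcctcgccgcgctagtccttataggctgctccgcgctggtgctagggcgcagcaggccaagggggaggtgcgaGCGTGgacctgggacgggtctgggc
EGLN1 (chr1:231422238-231422537, minus strand): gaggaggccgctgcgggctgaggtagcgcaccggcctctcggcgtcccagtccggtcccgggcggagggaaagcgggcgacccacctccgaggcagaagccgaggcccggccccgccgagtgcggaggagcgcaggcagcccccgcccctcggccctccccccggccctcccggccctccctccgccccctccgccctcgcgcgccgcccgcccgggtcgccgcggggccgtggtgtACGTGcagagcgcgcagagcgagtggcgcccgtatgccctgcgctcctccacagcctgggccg
KDM3A (chr2:86441121-86441420, plus strand): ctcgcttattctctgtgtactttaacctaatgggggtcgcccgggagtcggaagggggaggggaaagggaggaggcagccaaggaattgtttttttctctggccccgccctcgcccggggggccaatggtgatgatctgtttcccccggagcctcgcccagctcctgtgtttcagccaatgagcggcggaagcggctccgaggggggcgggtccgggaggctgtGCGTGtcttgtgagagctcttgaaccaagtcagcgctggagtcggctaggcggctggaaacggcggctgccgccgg
ADM (chr11:10304823-10305122, plus strand): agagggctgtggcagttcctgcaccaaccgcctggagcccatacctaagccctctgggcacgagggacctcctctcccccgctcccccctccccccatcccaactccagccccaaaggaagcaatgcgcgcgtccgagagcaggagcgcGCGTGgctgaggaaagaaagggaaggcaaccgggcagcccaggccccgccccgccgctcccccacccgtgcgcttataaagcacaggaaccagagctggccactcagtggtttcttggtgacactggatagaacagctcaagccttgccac
ENO2 (chr12:6914330-6914629, plus strand): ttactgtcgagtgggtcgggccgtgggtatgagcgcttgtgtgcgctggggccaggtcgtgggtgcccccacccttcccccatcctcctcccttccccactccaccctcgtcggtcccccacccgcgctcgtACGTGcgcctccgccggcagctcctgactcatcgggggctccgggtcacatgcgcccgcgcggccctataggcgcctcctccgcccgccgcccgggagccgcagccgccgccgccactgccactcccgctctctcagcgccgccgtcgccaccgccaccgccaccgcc
PFKFB3 (chr10:6144671-6144970, plus strand): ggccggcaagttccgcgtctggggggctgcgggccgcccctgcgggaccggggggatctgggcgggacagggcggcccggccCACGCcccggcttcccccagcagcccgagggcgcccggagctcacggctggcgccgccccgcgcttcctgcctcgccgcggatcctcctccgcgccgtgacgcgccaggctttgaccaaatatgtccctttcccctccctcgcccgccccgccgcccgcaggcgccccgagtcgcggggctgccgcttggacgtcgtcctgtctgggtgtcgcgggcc
In these windows DDIT4 held 4 matches and the other 5 held 1 each. PFKFB3 has another listed start (window chr10:6202682-6202981) with 2 matches that overlap each other. KDM3A has another start whose window (chr2:86441211-86441510) overlaps the one shown and holds the same match, not a further one. Which start these cells use was not tested. In ENO2 the match began 118 bases before the start and in EGLN1 13 bases before it. Of the fallers, the windows of PGAM1, PKM and EPAS1 held 0, 1 and 1 matches, and that of GAPDH 2 that overlap each other. Over the first listed start of each gene, a match occurred in 23 of 32 members (71.9%), among them 12 of 17 enzymes (70.6%) and 11 of 15 others (73.3%), against 48.4% of 27305 genes in the table. The members' windows had a median of 69.8% G and C, against 58.3% over all genes. These are descriptions of letters in a window, not of bound sites, and SLC2A3, ANKZF1, SLC16A1, VEGFA and BNIP3L were not in the table used.

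Enzymes and non-glycolytic targets were set side by side, since both groups contain genes known as HIF targets. Over the mean of the hairpins the 17 enzymes, counting LDHA and LDHB, had a median log2 change of -0.049, with 1 rise and 3 falls. The 8 non-glycolytic targets had a median of 0.26, with 4 rises. This holds for the 8 listed genes, since 27 further HIF targets, described below, had a median of 0.092, with 2 rises and 3 falls. With sh1 taken singly 1 target rose (KDM3A) and 1 fell (VEGFA), while with sh3 5 rose (KDM3A, DDIT4, ANKZF1, ADM and P4HA1) and the other 3 were not called. Of the 17 enzymes 1 rose and 1 fell with sh1, and 3 rose and 4 fell with sh3. Over all 13885 genes the median for the mean of the hairpins was -0.0022, with background shares of rises and falls of 6.55% and 6.19%. These shares were 2.88% and 3.43% with sh1, and 9.36% and 9.19% with sh3. With sh1 the medians were -0.062 for the enzymes and 0.11 for the targets, and with sh3 -0.016 and 0.39. The median of the targets relative to the control mean was 0.079 to 0.16 in the 3 sh1 libraries and 0.22 to 0.52 in the 3 sh3 libraries, lowest of the sh3 arm in sh3 C. That of the enzymes was -0.085 to -0.040 with sh1 and -0.043 to 0.011 with sh3. The members were chosen with results known, so these medians are descriptions without a test. The 4 genes of glucose uptake and glycolytic regulation, SLC2A1, SLC2A3, PFKFB3 and PFKFB4, had a median of 0.37, with 2 rises.

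**Figure D3:**
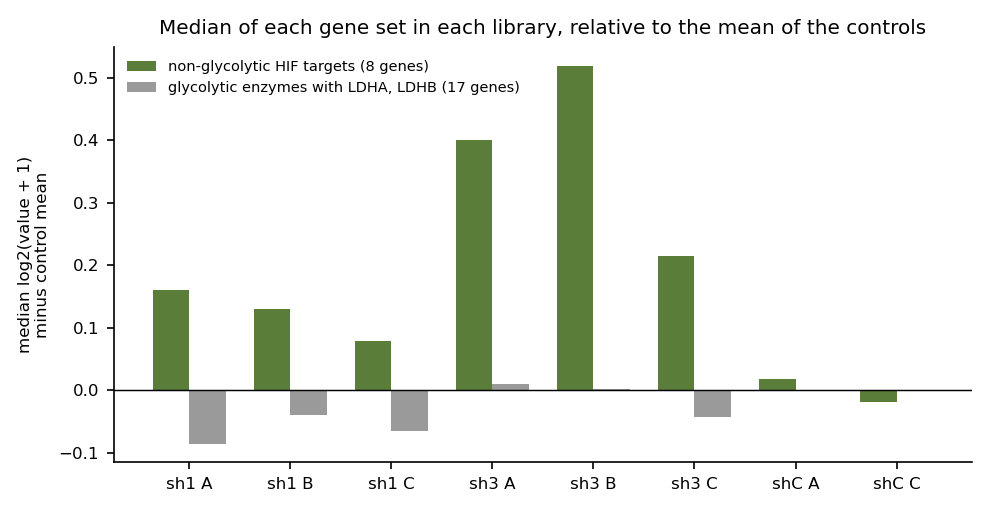
Median of log2(normalized count + 1) relative to the mean of both controls (vertical axis) for the 8 non-glycolytic HIF targets and the 17 enzymes in each of the 8 libraries. The target medians are 0.22 to 0.52 in the sh3 libraries and 0.079 to 0.16 in the sh1 libraries, while the enzyme medians stay between -0.085 and 0.011.

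The hairpins were then compared directly, without use of the control libraries in the contrast. Of the 37 genes 11 differed, 3 higher and 8 lower with sh1 than with sh3, against 11.4% of all genes (5.61% higher and 5.83% lower). Lower with sh1 were SLC2A3 (-0.73 ± 0.11, SE), DDIT4 (-0.67 ± 0.10), VEGFA (-0.53 ± 0.069) and LDHA (-0.31 ± 0.044), all 4 called in each alternative (limma adjusted p = 0.0012, 0.0016, 0.00057 and 0.00086). PFKFB3, P4HA1, ANKZF1 and HK1 were lower with sh1 too, with log2 differences of -0.31, -0.28, -0.26 and -0.18. Higher with sh1 were PGAM1 (0.26 ± 0.042, adjusted p = 0.0020), EGLN3 (0.26 ± 0.075, adjusted p = 0.048) and TPI1 (0.23 ± 0.059, adjusted p = 0.027). Thus 4 of the 8 non-glycolytic targets (DDIT4, VEGFA, ANKZF1 and P4HA1) were lower with sh1 than with sh3. The difference in SIRT1 itself, 0.16 ± 0.063, was not called (adjusted p = 0.14, 95% interval 0.021 to 0.30), and its part in the differences above was not tested. Without sh3 C 9 of the 37 were called, and without sh1 B, sh1 C, sh3 A or sh3 B 6 each.

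Other genes of these pathways were read from a list of 98 symbols, of which 87 had a row and 78 were tested. Over the mean of the hairpins 2 rose and 9 fell, against 6.55% and 6.19% of all genes, and their median log2 change was -0.014. The risers were the HIF targets SAP30, a subunit of the SIN3 corepressor (1645 ± 98.6 with sh1, 1555 ± 40.7 with sh3 and 1268 ± 3.56 in the controls, SD, change 0.33 ± 0.059), and CCNG2, an unconventional cyclin (0.21 ± 0.056). PGD, a dehydrogenase of the pentose phosphate branch, fell, with a change of -0.25 ± 0.047 (limma adjusted p = 0.0059). HIF1AN, the asparagine hydroxylase that blocks HIF coactivator binding, was at 4250.0, 4116 and 3971 with sh1 and 3409.5, 3047 and 3435 with sh3, against 4616 and 4517 in the controls. It was lower than both controls in all knockdown libraries and lowest with sh3, with a change of -0.31 ± 0.055 (adjusted p = 0.0046). The HIF targets VLDLR (-0.22), NARF (-0.21) and KCTD11 (-1.17) fell as well, KCTD11 being a low gene with a mean of 29.3 normalized counts. Of the 27 further HIF targets tested 2 rose and 3 fell, with a median of 0.092. These are 7.41% and 11.1%, against 6.55% and 6.19% of all genes. The genes named here all missed the threshold without control C, CCNG2, VLDLR, NARF and KCTD11 also without control A.

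The calls for the mean of the hairpins leaned on control C. Of the 12 called members 8 were still called without control A and 1, SLC2A3, without control C, where the lone control is assumed to vary like the other groups. All 12 kept their sign in each of these fits. Without sh3 C, the library with conflicting labels, 11 of the 12 were still called, GAPDH being the exception, and 2 others were added. In the sh3 comparison 8 of 18 calls were left without control C, namely SLC2A1, SLC2A3, PGAM1, PKM, PFKFB3, KDM3A, DDIT4 and ANKZF1. In the sh1 comparison 2 of 37 members were called without sh1 B (LDHA and VEGFA) and 2 without control A (ENO2 and KDM3A).

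**Figure D4:**
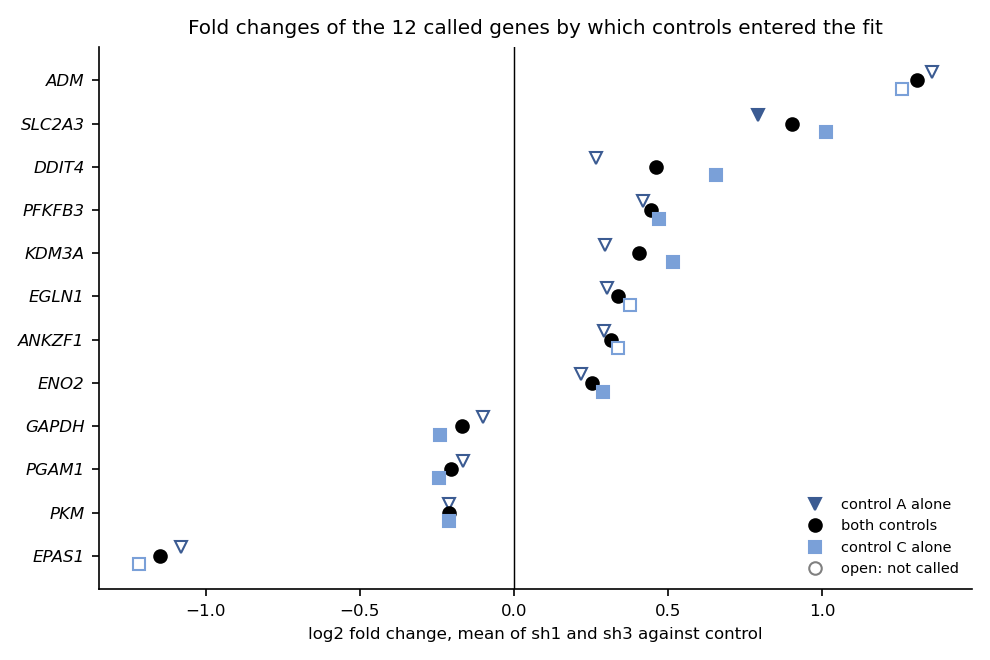
Log2 fold change (horizontal axis) of the 12 called genes, for the mean of sh1 and sh3, with control A alone, both controls, or control C alone in the fit. Filled points have an adjusted p under 0.05. Directions are the same in all 3 fits, though the sh3 change of GAPDH loses its direction under quantile normalization, and SLC2A3 is the 1 gene filled with control A alone (0.79, adjusted p = 0.020).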

How the data were processed

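Strand-specific RNA libraries of DND41 cells were sequenced, per the labels' protocols, and 8 were grouped by title. The authors deposited normalized counts (a signal, not whole numbers), 1 value for each gene symbol and library. The submitters' processing notes name kallisto 0.44.0, DESeq and hg38, and the sources used here give neither annotation nor filters. Only 35.8% to 50.7% of low values lay within 0.02 of a multiple of a common step, so whole reads were not recovered and no count test was run.

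A pseudocount of 1 was added before log2 transformation, and 4248 rows averaging under 10 were removed. limma 3.58.1 (R 4.3.3) was fitted to all 3 groups at once with a trended variance prior and 5 residual degrees of freedom. Positions are from GENCODE release 29 (GRCh38). Of the 37 genes 13 have a span that overlaps that of another coding gene, ENO2, ANKZF1, TPI1, LDHB, SLC16A3 and EGLN3 among them. Strand and exons were not compared for these overlaps, and use of strand in counting is not given. GAPDH has 62 annotated pseudogenes, of which 9 had rows, with a sum of 0.0629% of its mean.

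The members and gene lists were chosen with earlier results of these data known. Values per library are given for members called in any contrast, HIF1A and SIRT1, and at most 6 other pathway genes per direction are named by p, of which 1 is not reported here, nor is 1 marker. Alternatives changed the pseudocount, filter, scaling, variance prior, replicate block, groups in the fit and libraries.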

Additional observations from a re-analysis of the deposited data

Results flagged for a closer look

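Differences between the effects of the 2 hairpins drew attention to 11 of the 37 genes, by the direct comparison of sh1 with sh3 (limma, adjusted over 13885 genes). The log2 differences, sh1 minus sh3, were -0.53 for VEGFA, -0.31 for LDHA, -0.73 for SLC2A3, -0.67 for DDIT4 and 0.26 for PGAM1. They were -0.31 for PFKFB3, -0.18 for HK1, -0.26 for ANKZF1, 0.23 for TPI1, 0.26 for EGLN3 and -0.28 for P4HA1. In all 11 the 3 sh1 libraries and the 3 sh3 libraries did not overlap, which adds no support, since this difference selected them. Of all 37 members 8 were higher and 14 lower with sh1 without overlap, against 30.5% of all genes (15.2% and 15.2%). VEGFA and LDHA were called against control with sh1 and not with sh3. VEGFA, LDHA, SLC2A3, DDIT4 and PGAM1 kept the call in each alternative, and the other 6 lost it in at least 4 of them.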

How the results depend on the processing

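Pseudocounts of 0.5 and 5, another filter on low values and rescaling by the median of ratios left the counts of called members within 1.5 times of those reported in the comparisons of both hairpins, of sh1 and of sh3 with control and of sh1 with sh3. Without a trend in the variance prior the called members were 5 for both hairpins, 0 for sh1 (limma, 14 at an unadjusted p under 0.05), 11 for sh3 and 5 between the hairpins, and over all genes 744, 236, 1531 and 968, against 1768, 876, 2576 and 1589. The members that lost their call there were GAPDH, PGAM1, EPAS1, EGLN1, DDIT4, ANKZF1 and ADM for both hairpins, all 7 for sh1, SLC2A1, HK1, HK2, TPI1, GAPDH, EGLN1 and P4HA1 for sh3, and HK1, TPI1, PFKFB3, EGLN3, ANKZF1 and P4HA1 between the hairpins. Leaving out 1 library gave 1 to 16 called members for both hairpins, 0 to 7 for sh1 (0 without control C, with 11 at an unadjusted p under 0.05), 8 to 19 for sh3 and 6 to 12 between the hairpins, and over all genes 339 to 1892, 160 to 784, 854 to 2926 and 926 to 1765. With sh1 and the controls alone in the fit 463 genes were called. Under quantile normalization the sh3 change of GAPDH was 0.0060 and that of ENO1 0.13 (adjusted p = 0.96 and 0.040), and the cause was not tested. Of 48 calls of members over the 4 comparisons 13 kept their side of the threshold in each alternative. The difference of set medians, targets minus enzymes, was 0.31 and ranged from 0.25 to 0.36. A replicate block on the letters gave 11, 5, 17 and 12 called members and 549 genes over all with sh1, and ended the calls of GAPDH and ADM for both hairpins, SLC16A1 and EPAS1 for sh1 and HK1 for sh3. Same-letter libraries of different groups had residual correlations of -0.14 to 0.092, and the different-letter pair sh1 B and sh3 C had 0.22. With groups of 3, 3 and 2 libraries these values cannot show whether same-letter libraries had anything in common. Depth in reads is unknown. ADM, BNIP3 and ALDOC were the lowest of the 37.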

Other observations

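Between the hairpins 7 of the 78 other pathway genes differed, 5 higher and 2 lower with sh1 than with sh3, against 5.61% and 5.83% of all genes. The examples that follow were chosen after their values were seen. PGM1, the phosphoglucomutase that links glycolysis to glycogen, was at 2922, 3046 and 2856 with sh1 and 1951, 1965 and 2028 with sh3, against 2698 and 2612 in the controls. All sh3 libraries were below both controls, and the difference between the hairpins was 0.57 ± 0.048 (SE, limma adjusted p = 2.9e-05). ARRDC4, a glucose-responsive arrestin, was at 687, 672 and 704 with sh1 and 444, 413 and 523 with sh3, against 673 and 830.1 in the controls, and its relative TXNIP, which restrains glucose uptake, at 2479, 2634 and 2445 with sh1 and 1662, 2017 and 1886 with sh3, against 1827 and 2414 in the controls. Both were lower with sh3 than with sh1 in every library, by 0.59 ± 0.10 and 0.45 ± 0.097 for sh1 minus sh3, with TXNIP not called without sh1 B or sh3 A. NDRG1, a hypoxia-induced gene, had its highest values with sh3 (843, 954 and 789 with sh1 and 1217, 1214 and 1118 with sh3, against 1033 and 1001 in the controls).

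BNIP3 and the rows of its pseudogenes summed to 433, 382 and 352 normalized counts with sh1, 429, 355 and 387 with sh3 and 385 and 395 in the controls, and the 3 groups overlapped.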
